A study of Mus musculus with 179 samples.

Results

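The data described here are 12 RNA-seq libraries of the prefrontal cortex (PFC) of adult male C57Bl6/j mice, out of 179 samples in the series (163 of them RNA). All 12 mice had gone through early life stress (ELS) on postnatal days 10 to 20. The libraries were chosen by their labels: 6 came from mice that met social defeat as adults (called ELS defeat) and 6 from mice that did not (called ELS control), so that ELS is shared by both groups and defeat is the difference between them. For comparison, the same table held 12 PFC libraries of standard-reared males, 6 with defeat (standard defeat) and 6 without (standard control), and 24 hippocampal (HIP) libraries of the same 4 groups. Each library is 1 mouse, punched 24 h after behavioural testing in the light phase. No transgene or mutation is named in the labels, which do not say how many litters or aggressors were used and do not tie PFC and HIP libraries to the same animal.

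Social defeat is a repeated encounter of a mouse with a larger, aggressive male, and it is used as a model of social stress. The PFC is a layered cortex of glutamatergic projection neurons and GABAergic interneurons that takes part in the control of the stress response. Its upper-layer neurons project mainly within the cortex and its deep-layer neurons to thalamus, brainstem and striatum, and activity of these cells is followed within minutes by transcription of immediate early genes. The question asked of these libraries was whether adult defeat went with other PFC transcript levels in mice with an ELS history, and whether that difference was unlike the one in standard-reared mice.

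Depth ran from 29.7 to 35.84 M reads per library in the 12 libraries and from 27.91 to 35.99 M over all 24 PFC libraries. The Y-linked helicase Ddx3y lay between 1729 and 2312 normalised reads and the X-inactivation transcript Xist between 4.69 and 66.2 in the 12 libraries, as the label male requires. The projection-neuron factor Tbr1 and C1ql2, a dentate granule cell gene, set the PFC apart from HIP. Tbr1 lay between 4611 and 6659 normalised reads in the 12 PFC libraries and between 578.4 and 3136 in the 12 ELS-reared HIP libraries. C1ql2 lay between 9.76 and 127.2 in PFC and between 333.4 and 4094 in HIP. The regions overlapped in Fezf2, a deep-layer gene, at 1128 to 2438 in PFC and 565.1 to 2119 in HIP. Of the choroid plexus genes, Folr1 lay between 0 and 8.78 normalised reads and Clic6 between 3.53 and 167.5, the highest in ELS defeat 5. The list sum was 146.5 to 229.9 in the ELS controls (median 185.5) and 182.1 to 414.8 after defeat (median 289.9), and its part in the results was not tested. Among the standard-reared libraries, controls 1 and 4 and defeat 4 held Xist above 200 normalised reads, and the values for defeat after standard rearing and for the difference between the rearing conditions were also computed without these 3, a choice made after seeing the data. Standard defeat 4 also carried midbrain dopamine transcripts, with 3853 normalised reads of Slc6a3 and 2086 of Th. ELS defeat 5 carried striatal transcripts, as given below. Values are normalised reads, the gene's reads divided by 1 factor per library, and differences are of mean log2(normalised reads + 1) with 1 standard error (SE) unless another scale is named.

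No gene passed the test for defeat after ELS. With limma and Benjamini-Hochberg adjustment over 14000 genes, 0 genes (0%) had an adjusted p under 0.05, and the smallest adjusted p was 0.109. At an unadjusted p under 0.05, 1098 genes (7.84%) had a higher mean after defeat and 1239 (8.85%) a lower mean, 2337 in all against 700 that this threshold gives by chance. With edgeR on the recovered reads the count was 0 as well, with a smallest adjusted p of 0.0927, and 1225 genes were higher and 1176 lower at an unadjusted p under 0.05. In 34 genes (0.243%) every defeat library lay above every control library, and in 40 genes (0.286%) every defeat library lay below. These counts depended on single mice. Without ELS control 1, 35 genes had an adjusted p under 0.05 (limma), and with 2 surrogate variables in the fit 12 did. Without ELS control 4 the counts at an unadjusted p under 0.05 were 580 higher and 633 lower, and the count of lower genes was 721 without ELS defeat 6 and 798 without ELS control 6.

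The genes of smallest p with a higher mean after defeat included an innate immune adaptor, a growth factor and enzymes of sterol and lipid handling. Myd88, the adaptor through which Toll-like and interleukin-1 receptors signal, ranged from 106.1 to 113.9 normalised reads in the ELS controls (median 113.1) and from 131.8 to 168.8 after defeat (median 140.5). The groups did not overlap, and ELS defeat 1 was highest. The difference in Myd88 was 0.37 ± 0.07 (SE) on the log2 scale, a fold of 1.29. In the standard-reared mice the Myd88 medians lay between those of the ELS groups, at 129 without and 124 with defeat. Their ranges, 115 to 136.2 without and 119.7 to 135.2 with defeat, reached into the ELS defeat range. The difference after standard rearing was -0.03 ± 0.07 (SE).

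Nrg2, a neuregulin ligand of ErbB receptors, ranged from 159.5 to 209.3 normalised reads in the ELS controls (median 199) and from 227.3 to 277.5 after defeat (median 258.7), a log2 difference of 0.41 ± 0.09 (SE). All 6 defeat libraries lay above all 6 controls. Mvd, which makes isopentenyl diphosphate for cholesterol synthesis, ranged from 490 to 630.2 in the controls and from 645 to 782.5 after defeat, a difference of 0.32 ± 0.06 (SE), again without overlap. Its difference after standard rearing was 0.20 ± 0.06 (SE). Pltp, a phospholipid transfer protein of plasma and brain lipoproteins, had a median of 1035 in the controls and 1385 after defeat, with a log2 difference of 0.40 ± 0.09 (SE).

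H2-Q4, a class I histocompatibility gene, ranged from 49.5 to 80.6 normalised reads in the controls and from 87.2 to 162.4 after defeat (0.73 ± 0.17 SE), with defeat libraries 1 and 2 far above the other 4. Class I genes are near-identical copies, so reads may be split among them. Stc2, a secreted stanniocalcin, had a median of 36 in the controls and 58.6 after defeat (0.64 ± 0.14 SE), and the potassium channel Kcnh4 of 379.2 and 549.1 (0.57 ± 0.13 SE). The remaining 5 of the 12 higher genes were Slc38a3, a glutamine transporter of astrocytes, the matrix protein gene Ecm1, the tRNA methyltransferase subunit Trmt61a, the non-muscle myosin heavy chain Myh9 and the synaptic scaffold gene Lin7b. Over all 12, the groups did not overlap in 9, and the log2 differences ran from 0.23 (Myh9) to 0.73 (H2-Q4). These genes were picked by their p in this same contrast, which favours groups that do not overlap. Over all genes 0.243% did not overlap in this direction.

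The 12 genes of smallest p with a lower mean after defeat included a growth factor, a synaptic adhesion molecule and zinc finger genes. Fgf10, a secreted fibroblast growth factor, ranged from 275.2 to 374.8 normalised reads in the ELS controls (median 329.1) and from 158.6 to 294.5 after defeat (median 216), a log2 difference of -0.60 ± 0.13 (SE) and a fold of 0.66. Defeat libraries 3 and 4 reached into the control range and the other 4 lay below it. Sdk2, a synaptic adhesion molecule of the immunoglobulin superfamily, had the same 2 libraries high after defeat (2471 and 2393), with the other 4 between 1401 and 1757 against 2369 to 3500 in the controls (-0.59 ± 0.13 SE). After standard rearing the differences were -0.06 ± 0.13 (SE) for Fgf10 and -0.06 ± 0.13 (SE) for Sdk2, and -0.08 and -0.19 without the 3 libraries of high Xist.

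Shisa9, an auxiliary subunit of AMPA-type glutamate receptors, ranged from 2826 to 3364 normalised reads in the controls and from 2196 to 2807 after defeat, without overlap (-0.24 ± 0.05 SE). Dixdc1, a Wnt pathway protein of neurons, had a median of 3414 in the controls and 2786 after defeat (-0.31 ± 0.07 SE), also without overlap. Plcb4, a phospholipase C that works downstream of metabotropic glutamate receptors, had medians of 2475 and 2036 (-0.22 ± 0.05 SE). The other lower genes were Gatsl2, the zinc finger genes Zscan21 and Zfp948, the leucine-rich repeat gene Lrrn3, Myadm, Nhsl2 and Ppp1r10, a nuclear targeting subunit of protein phosphatase 1, with differences between -0.33 (Lrrn3) and -0.15 (Ppp1r10). In Gatsl2, Zscan21, Zfp948 and Myadm the groups did not overlap either. These lower genes too were picked by their p, and over all genes 0.286% did not overlap in this direction. Of the 24 named genes none passed, with adjusted p between 0.109 and 0.130 (limma).

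**Figure D1:**
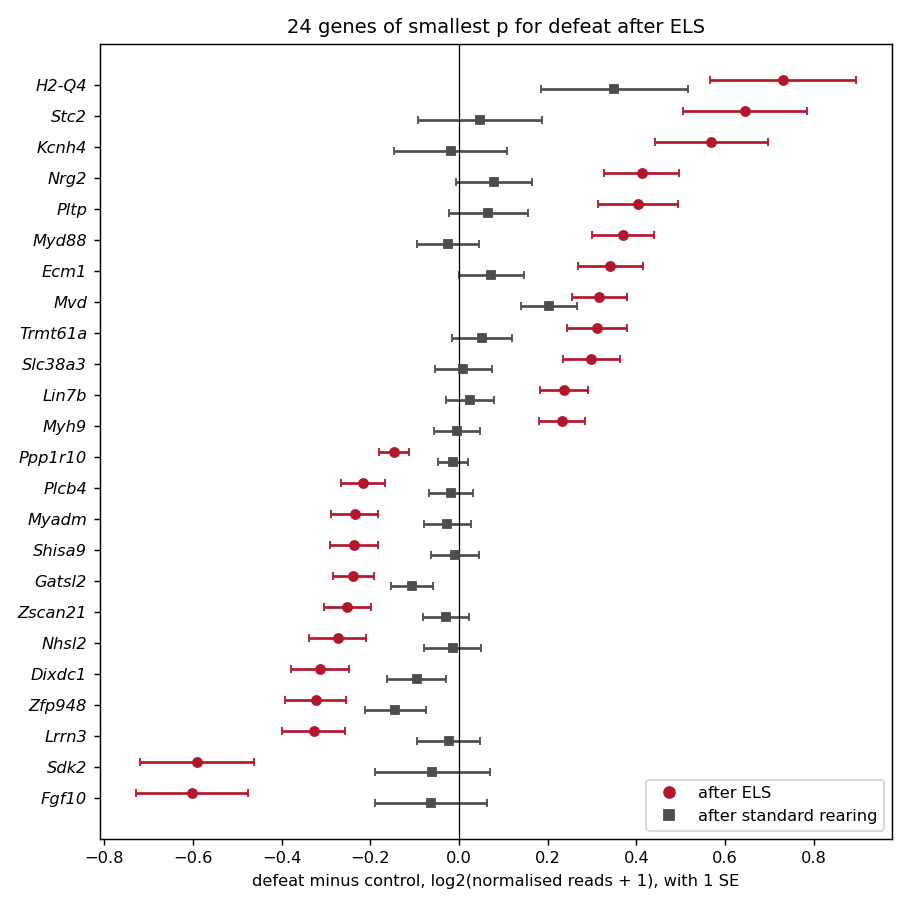
Difference between defeat and control on the log2(normalised reads + 1) scale with 1 SE for the 24 genes of smallest p after ELS (circles) and for the same genes after standard rearing (squares), 6 libraries per group. The ELS values run from -0.60 in Fgf10 to 0.73 in H2-Q4, and the genes were chosen by these values; the standard-reared values of Fgf10 and Myd88 are -0.06 and -0.03.

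Immediate early genes, which encode transcription factors, phosphatases and synaptic proteins made soon after neuronal activity, had lower means after defeat. Of 24 members 21 had a lower mean, 14 of them at an unadjusted p under 0.05 and 0 in the other direction. All 14000 genes gave 8.85% lower and 7.84% higher at that threshold. The list had a median log2 difference of -0.43 against -0.0026 over all genes. None of the 24 members passed after adjustment. Dusp1, a phosphatase that switches off MAP kinases, ranged from 640.4 to 2116 normalised reads in the ELS controls (median 1112) and from 501.9 to 765.7 after defeat (median 679.6), a log2 difference of -0.75 ± 0.24 (SE). Fos had a median of 758 in the controls (409.9 to 1648) and 422.5 after defeat (339.5 to 644.9), a difference of -0.86 ± 0.34 (SE). The groups overlapped in both genes, because controls 1, 2 and 3 lay near the defeat libraries while controls 4, 5 and 6 held 979.1, 1648 and 1230 normalised reads of Fos.

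Other members followed these libraries. Btg2, an antiproliferative regulator, had a median of 573.2 in the controls and 315.6 after defeat (-0.74 ± 0.25 SE), and the orphan nuclear receptor Nr4a2 of 327.9 and 222.8 (-0.69 ± 0.22 SE). Egr2 had a median of 241.1 and 123.4 (-0.97 ± 0.42 SE), and Arc, a synaptic protein that moves AMPA receptors off the surface, of 3987 and 2049 (-0.91 ± 0.45 SE), with 1 control at 10422. Nptx2, a pentraxin that clusters AMPA receptors, went the other way with medians of 2030 and 2267 (0.26 ± 0.13 SE). Summed over the list, controls 1, 2 and 3 held 34977, 35726 and 37461 normalised reads, controls 4, 5 and 6 held 53351, 70899 and 60437, and the defeat libraries 32368 to 44424. The number at an unadjusted p under 0.05 was 6 without control 5 and 7 without control 6. After standard rearing the list had a median of -0.39 with 12 lower and 0 higher at an unadjusted p under 0.05, where all genes gave 1.81% lower and 1.54% higher. Without the 3 libraries of high Xist the standard-reared median was -0.20, with 0 lower and 0 higher. In HIP the ELS median was -0.15.

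The cyclic AMP response element, the palindrome TGACGTCA bound by CREB, was looked for on both strands in the 250 bases before the start sites of these genes, since it is the best known activity-dependent element. Of 24 members 17 matched a RefSeq promoter (GRCm38.p6), and Dusp1 and Btg2 held the full element, against 1.55% of all 32851 promoters of this length. They are shown because they are also among the 5 members of smallest p. Dusp1 lies at chr17:26508473-26508722 and Btg2 at chr1:134079156-134079405, both on the minus strand; letters read 5′ to 3′ towards the start site and capitals mark the element.
Dusp1: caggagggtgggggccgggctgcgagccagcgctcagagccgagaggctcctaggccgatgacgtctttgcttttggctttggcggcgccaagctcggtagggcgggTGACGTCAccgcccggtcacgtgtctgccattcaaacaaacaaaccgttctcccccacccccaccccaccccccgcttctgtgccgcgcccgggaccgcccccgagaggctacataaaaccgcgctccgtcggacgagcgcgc
Btg2: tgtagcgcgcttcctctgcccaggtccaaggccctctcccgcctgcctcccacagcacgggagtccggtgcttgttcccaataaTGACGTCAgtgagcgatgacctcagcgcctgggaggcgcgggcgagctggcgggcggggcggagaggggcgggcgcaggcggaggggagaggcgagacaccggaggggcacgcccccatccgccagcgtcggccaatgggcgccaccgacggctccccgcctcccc
A match describes these letters and is not a measured binding site; shorter forms of the element were not counted.

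Chaperones of the endoplasmic reticulum (ER) fold secreted and membrane proteins, and many are induced together by the unfolded protein response. All 13 members had a lower mean after defeat, 9 at an unadjusted p under 0.05, with a median of -0.15 against -0.0026 over all genes and 8.85% of all genes lower at that threshold. Hspa5, the ER member of the Hsp70 family, ranged from 5587 to 10699 normalised reads in the ELS controls (median 8172) and from 5424 to 7615 after defeat (median 6024), a log2 difference of -0.38 ± 0.12 (SE). All 6 defeat libraries lay below the control mean, but controls 1 and 2 lay within their range. Manf, a secreted ER stress factor, had a median of 874.6 in the controls and 722.9 after defeat (-0.25 ± 0.07 SE), and the disulfide isomerase Pdia4 of 1318 and 1020 (-0.32 ± 0.10 SE). Dnajc3, a co-chaperone and inhibitor of the kinase PERK, had medians of 1822 and 1687 (-0.15 ± 0.05 SE), and the unfolded protein response factor Xbp1 of 2594 and 2267 (-0.18 ± 0.06 SE). Calr, the lectin chaperone calreticulin, differed by -0.15 ± 0.07 (SE) and Hsp90b1, the ER member of the Hsp90 family, by -0.13 ± 0.09 (SE).

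Of the controls high for the immediate early genes, 4 and 6 had the largest ER chaperone sums, 56041 and 52985 normalised reads. Control 5, the highest for the immediate early genes, held 47805, near the 47239 of control 2. Control 1 had the smallest sum, 38091, while the defeat libraries held 38613 to 47587. Without control 4 the count at an unadjusted p under 0.05 was 5 of 13. After standard rearing the list median was -0.07 with 1 lower, where all genes gave 1.81% lower at that threshold. Without the 3 libraries of high Xist the median was -0.02 with 0 lower, and the HIP median after ELS was -0.12. Cytosolic heat shock genes had a median of -0.11, with 3 of 16 lower and 0 higher at an unadjusted p under 0.05. All genes gave 8.85% lower and 7.84% higher at that threshold. Among the 3 were Hsp90ab1 (-0.13 ± 0.05 SE) and Dnajb4 (-0.15 ± 0.06 SE). The count of lower heat shock genes ran from 0 without control 4 to 10 without control 1.

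The ER stress response element, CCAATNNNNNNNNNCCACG, is the sequence through which ATF6 and XBP1 act on chaperone genes. It was searched on both strands in the 250 bases before the start site. Of 13 members 11 matched a RefSeq promoter, and 6 held the element (Calr, Creld2, Dnajc3, Hsp90b1, Hspa5 and Pdia6), against 0.113% of all 32851 promoters (37 promoters). Element and list were both chosen for chaperones, so this share is not a result about defeat. Hspa5, Dnajc3, Calr and Hsp90b1 are printed to show how the element sits in the promoters of chaperone and co-chaperone genes, with capitals for the element on either strand. They lie at chr2:34771840-34772089 (Hspa5, plus strand), chr14:118937682-118937931 (Dnajc3, plus strand), chr8:84846932-84847181 (Calr, minus strand) and chr10:86705445-86705694 (Hsp90b1, minus strand) of GRCm38.p6.
Hspa5: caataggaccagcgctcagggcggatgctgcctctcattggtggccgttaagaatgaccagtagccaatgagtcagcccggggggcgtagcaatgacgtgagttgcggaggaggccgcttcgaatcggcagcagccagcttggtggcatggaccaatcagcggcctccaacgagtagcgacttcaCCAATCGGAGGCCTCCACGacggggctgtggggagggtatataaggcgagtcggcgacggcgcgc
Dnajc3: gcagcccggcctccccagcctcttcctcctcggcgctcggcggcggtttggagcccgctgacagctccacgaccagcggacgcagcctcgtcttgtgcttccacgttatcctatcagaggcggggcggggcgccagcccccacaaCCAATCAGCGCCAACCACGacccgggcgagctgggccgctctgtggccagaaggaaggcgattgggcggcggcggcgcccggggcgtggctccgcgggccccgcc
Calr: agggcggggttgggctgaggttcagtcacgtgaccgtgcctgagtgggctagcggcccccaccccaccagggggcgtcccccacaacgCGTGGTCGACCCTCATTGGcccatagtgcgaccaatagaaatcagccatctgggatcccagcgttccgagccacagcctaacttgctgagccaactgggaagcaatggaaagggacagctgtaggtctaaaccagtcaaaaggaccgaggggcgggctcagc
Hsp90b1: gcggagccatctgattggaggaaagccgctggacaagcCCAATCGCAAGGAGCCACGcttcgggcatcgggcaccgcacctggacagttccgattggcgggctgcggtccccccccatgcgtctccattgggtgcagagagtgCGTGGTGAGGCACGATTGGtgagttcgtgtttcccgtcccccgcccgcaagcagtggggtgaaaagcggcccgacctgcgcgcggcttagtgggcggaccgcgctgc
The element lies at bases -65 to -47 from the start site in Hspa5 and at -105 to -87 in Dnajc3, and Hsp90b1 holds 2 copies. No binding was measured in these libraries.

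Genes of deep-layer projection neurons had lower means after defeat in 13 of 14 members, 5 of them at an unadjusted p under 0.05 and 0 higher, against 8.85% lower and 7.84% higher over all genes, with a median of -0.40. None passed after adjustment. In bulk tissue, fewer cells of a type and less RNA per cell cannot be told apart, and the depth of a punch across the layers was not recorded in the labels used here. Tle4, a corepressor of corticothalamic neurons, ranged from 2256 to 3249 normalised reads in the ELS controls (median 2573) and from 1534 to 2788 after defeat (median 1909), a log2 difference of -0.40 ± 0.14 (SE). Fezf2, the factor that specifies subcortical projection neurons, had medians of 2128 and 1672 (-0.34 ± 0.13 SE), and Hs3st4, a heparan sulfotransferase of deep-layer cells, of 2492 and 1681 (-0.47 ± 0.20 SE). Tbr1, needed for corticothalamic identity, differed by -0.17 ± 0.08 (SE) and the layer 5 factor Etv1 by -0.21 ± 0.08 (SE). Pcp4 went the other way, at 0.32 ± 0.21 (SE).

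The deep-layer genes were low in 4 of the 6 defeated mice. Summed over the list, defeat libraries 1, 2, 5 and 6 held 22487, 20792, 24940 and 19350 normalised reads, and defeat libraries 3 and 4 held 29446 and 30691, inside the control range of 25977 to 33415. The same 4 libraries had the higher sums of meningeal genes (5305, 6623, 4787 and 4025, against 3001 and 3760 in defeat 3 and 4) and of endothelial genes (15911, 14810, 13726 and 17639, against 12518 and 12515). Their upper-layer sums were 24098, 26475, 24049 and 25100, against 22168 and 22208 in defeat 3 and 4 and 21202 to 25516 in the controls. The part of tissue content in the deep-layer difference was not tested. The count at an unadjusted p under 0.05 was 2 without ELS defeat 6 or without control 4, 3 without defeat 1, defeat 2 or control 2, 8 without defeat 3 and 9 without defeat 4. After standard rearing the list median was 0.05 with 0 genes lower at that threshold (-0.01 and 0 without the 3 libraries of high Xist), and in HIP it was -0.06. The difference between the rearing conditions had an unadjusted p under 0.05 in 2 of 14 members, against 5.94% of all genes, and none passed after adjustment. Upper-layer genes had a median of 0.07, with Cux1 at 0.16 ± 0.08 (SE). The list of 8 general projection-neuron genes had a median of 0.08 and ran from -0.38 to 0.28. Of these, 2 were higher and 1 lower at an unadjusted p under 0.05, where all genes gave 7.84% higher and 8.85% lower. The glutamate transporter Slc17a7, a member of that list, differed by 0.01 ± 0.05 (SE).

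Of 22 glutamate receptor genes, 3 were higher and 5 lower at an unadjusted p under 0.05, with a median of -0.07, where all genes gave 7.84% higher and 8.85% lower. Grik3, a kainate receptor subunit, ranged from 5666 to 7875 normalised reads in the ELS controls (median 7128) and from 4178 to 6228 after defeat (median 4767), a log2 difference of -0.44 ± 0.11 (SE). As in Fgf10 and Sdk2, defeat libraries 3 and 4 were the 2 highest after defeat, at 6163 and 6228. The metabotropic receptor Grm8 had a difference of -0.22 ± 0.08 (SE) and the AMPA receptor subunit Gria1 of -0.18 ± 0.07 (SE). Grin2c, an NMDA receptor subunit made mainly by astrocytes in cortex, had medians of 1343 and 1552 (0.27 ± 0.08 SE). The count of lower genes was 8 without ELS control 1 and 3 without ELS defeat 6. After standard rearing Grik3 differed by 0.05 ± 0.11 (SE), or by -0.0050 without the 3 libraries of high Xist, and Grin2c by -0.08 ± 0.08 (SE). Among 14 GABA receptor genes 1 was higher (Gabrd, 0.22 ± 0.10 SE) and 1 lower at that threshold, and among 20 monoamine receptor genes 1 was lower (Htr1f, -0.30 ± 0.14 SE). Interneuron markers had a median of 0.05, and Cck was the 1 of 18 at that threshold (0.26 ± 0.11 SE). These GABA, monoamine and interneuron counts were near or below the share of all genes.

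**Figure D2:**
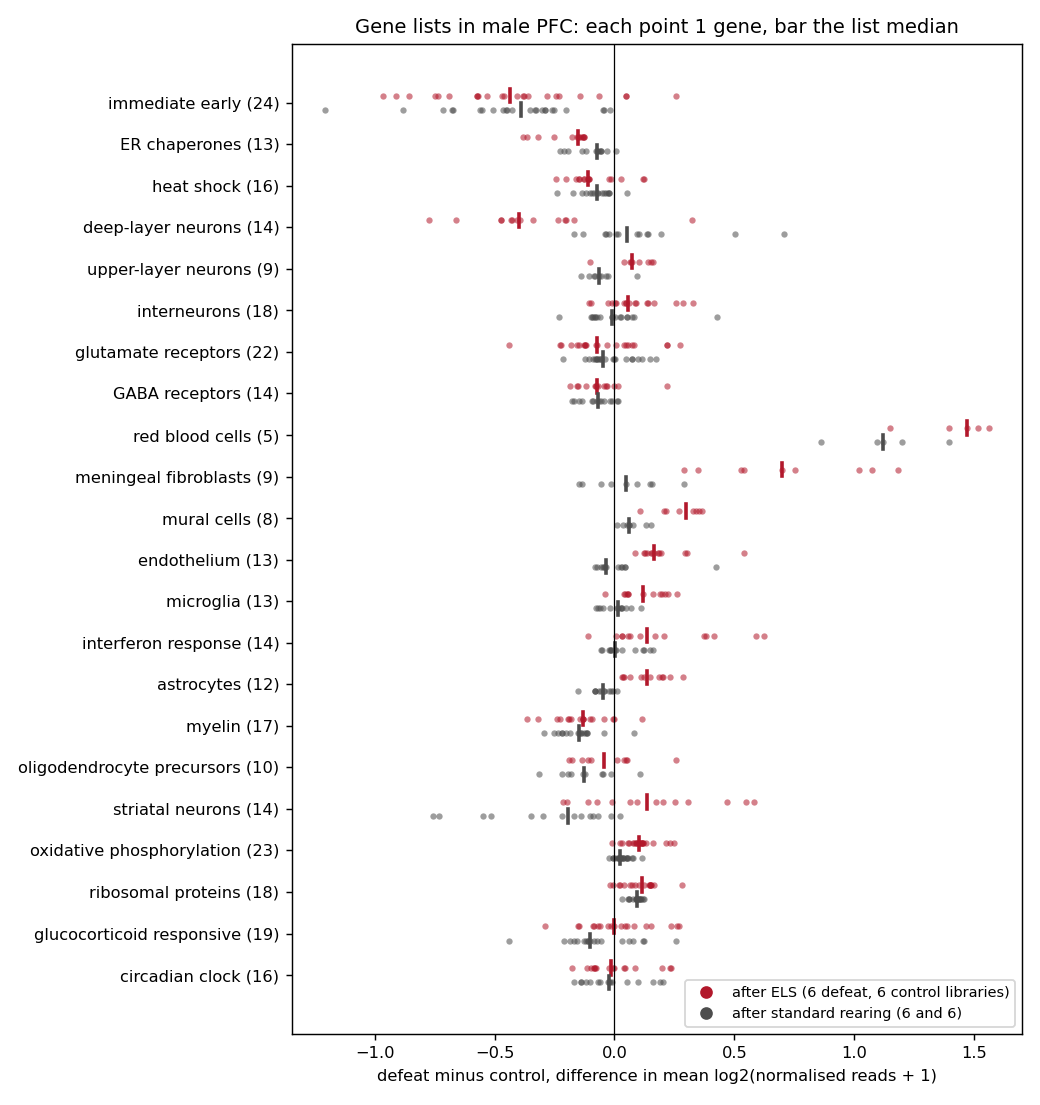
Each point is 1 gene's difference between defeat and control on the log2(normalised reads + 1) scale in male PFC, after ELS (red) and after standard rearing (grey), with the list median as a bar and the number of tested members in brackets. The immediate early medians are -0.43 and -0.39, while the deep-layer medians are -0.40 after ELS and 0.05 after standard rearing, and the meningeal medians 0.70 and 0.05.

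Transcripts of blood and of the vessel wall had higher means after defeat, and none passed after adjustment. All 5 red blood cell genes had an unadjusted p under 0.05, with a median log2 difference of 1.47. They are 4 globins and Alas2, which starts haem synthesis. Over all genes 7.84% were higher at that threshold. The haemoglobin genes come in near-identical pairs whose reads cannot be assigned with certainty. Hbb-b2 ranged from 75.9 to 171.3 normalised reads in the ELS controls and from 122.6 to 1689 after defeat, a difference of 1.56 ± 0.54 (SE). Most of it came from 2 mice: ELS defeat 6 held 20273 normalised reads over the 5 genes and ELS defeat 1 held 9197, the other 4 defeat libraries 1547 to 2640 and the controls 850.4 to 2174. The count was 2 of 5 without defeat 6 and 3 without defeat 1. After standard rearing the median was 1.12, with 2 of 5 at that threshold (1.36 and 1 of 5 without the 3 libraries of high Xist), and in HIP after ELS it was 1.19.

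Fibroblast genes of the meninges, the membranes around the brain, had higher means in 9 of 9 members, with a median of 0.70. At an unadjusted p under 0.05, 5 were higher, where all genes gave 7.84% higher. Col1a1, a chain of fibrillar collagen, ranged from 96.1 to 400.9 normalised reads in the ELS controls (median 213.3) and from 266.4 to 518.2 after defeat (median 434.2), a difference of 1.02 ± 0.33 (SE). Igf2, a growth factor of meninges and choroid plexus, had medians of 1199 and 1636 (0.70 ± 0.32 SE). Control 5 was low throughout, with 439.5 of Igf2 and a list sum of 1119 against 2148 to 4573 in the other controls and 3001 to 6623 after defeat. The median was 0.45 without control 5. The count was 2 without control 5, control 4 or defeat 2, and 3 without control 6, defeat 1 or defeat 5. The median after standard rearing was 0.05, with 0 members at that threshold, and in HIP after ELS the median was 1.14.

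Endothelial genes had higher means in 13 of 13 members and mural cell genes in 8 of 8, with medians of 0.17 and 0.30. At an unadjusted p under 0.05, 5 and 3 members were higher, where all genes gave 7.84% higher. After standard rearing the medians were -0.03 and 0.06, with 0 members of either list at that threshold. Without the 3 libraries of high Xist these medians were 0.02 and 0.14, again with 0 members. Cdh5, the cadherin of endothelial junctions, ranged from 413.2 to 519.1 normalised reads in the ELS controls (median 438.6) and from 476.3 to 650.7 after defeat (median 561.7), a difference of 0.30 ± 0.08 (SE). After standard rearing it differed by -0.04 ± 0.08 (SE), or by 0.02 ± 0.09 (SE) without the 3 libraries of high Xist. The receptor tyrosine kinase Tie1 differed by 0.29 ± 0.09 (SE), the clotting factor carrier Vwf by 0.54 ± 0.22 (SE), and the pericyte genes Kcnj8 and Pdgfrb by 0.36 ± 0.11 (SE) and 0.22 ± 0.08 (SE). The endothelial count was 2 without defeat 6, control 4 or control 5, 3 without defeat 1 or control 6, and 8 without defeat 4. Defeat libraries 6, 1 and 2 had the largest endothelial sums, 17639, 15911 and 14810 normalised reads, and defeat libraries 3 and 4 the smallest, 12518 and 12515, against 11619 to 14001 in the controls.

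Glial and immune genes were highest in some of the same mice. Microglial genes had a median of 0.12 with 5 of 13 higher at an unadjusted p under 0.05, where all genes gave 7.84% higher. The 5 included the phagocytic receptor Trem2, with medians of 318 and 358.1 (0.26 ± 0.09 SE), and the complement gene C1qb (0.20 ± 0.07 SE). The resting-state markers P2ry12, Tmem119 and Cx3cr1 differed by 0.05, 0.06 and 0.04. Interferon response genes had 4 of 14 higher and a median of 0.14: Bst2, which tethers budding virions, had medians of 58.2 and 92.3 (0.62 ± 0.16 SE), and Ifitm3 of 154.2 and 217.7 (0.59 ± 0.18 SE). The interferon count was 6 without control 1, and its median ran from 0.05 to 0.21 over the settings. Astrocyte genes had higher means in 12 of 12 members, with a median of 0.14 and 4 at that threshold, among them the water channel Aqp4 (0.19 ± 0.08 SE) and Gfap (0.28 ± 0.13 SE). The microglial count was 3 without defeat 2, defeat 6 or control 4, and the astrocyte count 2 without defeat 1, 5 or 6. After standard rearing the microglial, interferon and astrocyte medians were 0.01, 0.0023 and -0.05. In each list 0 genes were higher at that threshold, and 1 astrocyte gene was lower. Without the 3 libraries of high Xist these medians were 0.03, 0.07 and -0.04, with 0 genes higher or lower. Among the 12 libraries, defeat 6 had the highest mean log2 level of the endothelial, microglial and astrocyte lists, and control 4 was the lowest in all 3. The part of blood, vessel and meningeal content in these differences was not tested.

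Myelin genes overlapped widely between the groups. Of 17 myelin genes 0 had an unadjusted p under 0.05, with a median of -0.13 and list sums of 45136 to 75209 in the ELS controls and 30339 to 75652 after defeat, where defeat 2 was lowest. The dopamine transporter Slc6a3 was at most 21.1 normalised reads in the 12 libraries. Striatal projection neuron genes stood out in 1 of the 12 mice. ELS defeat 5 held 26954 normalised reads over the list, and 2509 of the enkephalin gene Penk. The list sums were 14271 to 15978 in the other ELS defeat libraries and 15103 to 16346 in the ELS controls. Among the standard-reared libraries the sums reached 29458 in the controls and 16687 after defeat. Genes of the stress hormone axis reached the unadjusted threshold about as often as all genes. Of 19 glucocorticoid-responsive genes 1 was higher and 2 lower at an unadjusted p under 0.05, with a median of -0.0037, and of 9 stress hormone receptors and peptides 1 and 1, where all genes gave 7.84% and 8.85%. Fkbp5, a co-chaperone of the glucocorticoid receptor, differed by 0.15 ± 0.09 (SE). The mineralocorticoid receptor gene Nr3c2 had medians of 1116 and 997.8 (-0.16 ± 0.06 SE), the glucocorticoid receptor gene Nr3c1 differed by -0.12 ± 0.06 (SE), and the corticotropin-releasing hormone receptor Crhr1 by 0.18 ± 0.08 (SE). Of 16 circadian clock genes, Nr1d1 (0.23 ± 0.07 SE) and Bhlhe41 (0.23 ± 0.08 SE) were the 2 higher at that threshold and Cry1 (-0.18 ± 0.06 SE) the 1 lower.

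**Figure D3:**
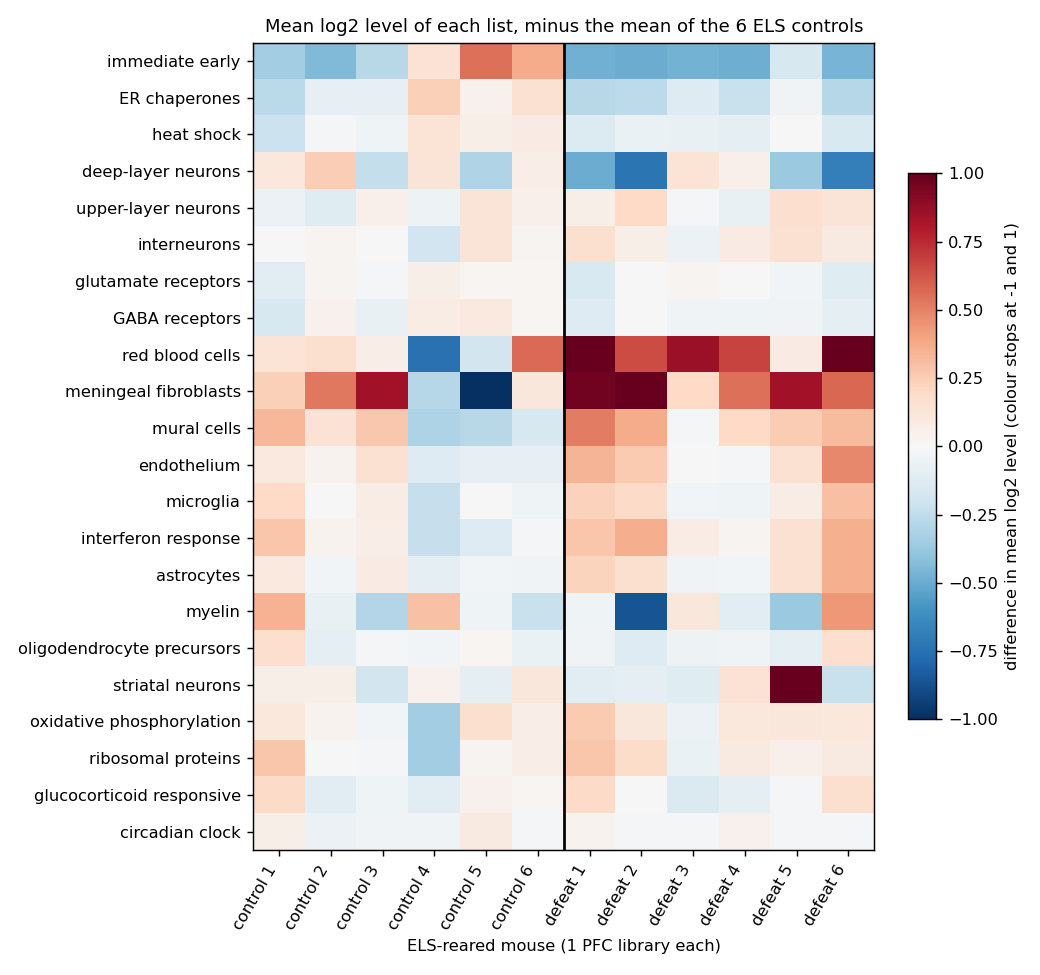
Colour shows the mean log2 level of each gene list in each of the 12 ELS-reared libraries, minus the mean of the 6 controls, so red is higher and blue is lower. The immediate early row is red in controls 4, 5 and 6 (0.14, 0.55 and 0.37) and blue in controls 1 to 3, and the deep-layer row is blue in defeat 1, 2, 5 and 6 (-0.49, -0.73, -0.37 and -0.68) and not in defeat 3 and 4.

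Genes of energy metabolism and translation had slightly higher means. Of 23 oxidative phosphorylation genes 22 were higher, with a median of 0.10 and 3 at an unadjusted p under 0.05. Of 18 ribosomal protein genes 16 were higher, with a median of 0.11 and 1 at that threshold. These 2 counts at the threshold were near the 7.84% higher of all genes. Ndufa1, a small subunit of respiratory complex I, had medians of 786.1 and 898.5 (0.25 ± 0.10 SE). Control 4 was the lowest library for both lists, at -0.34 and -0.35 from the control mean, and without it the oxidative phosphorylation median was 0.03. The count was 0 without control 4 or without defeat 1. Gene length moved with the difference as well. Among the 12016 tested genes with a RefSeq gene length (85.8%), the fifth with the shortest genes (up to 8.82 kb) had a median log2 difference of 0.05 and the fifth with the longest (from 82.1 kb) of -0.03, and after standard rearing these were 0.03 and -0.02. What part library preparation or RNA integrity has in this gradient was not tested, and the labels give an RNA integrity number above 9 for all samples. Among histone H3K4 methylation genes 3 of 14 were lower at an unadjusted p under 0.05, where all genes gave 8.85% lower. They were the complex subunit Rbbp5 (-0.14 ± 0.04 SE), the demethylase Kdm5a (-0.14 ± 0.06 SE) and the methyltransferase Kmt2c (-0.14 ± 0.06 SE). This count was 1 without defeat 1 or control 4 and 5 without defeat 3. Of 23 potassium channel genes 2 were lower, with Kcnd3 at -0.22 ± 0.06 (SE). Of 9 perineuronal net genes 1 was higher, the proteoglycan Bcan (0.22 ± 0.08 SE). Of 10 neurotrophic genes 1 was higher, Vegfa (0.20 ± 0.06 SE), and of 23 axon guidance genes 1 was higher, the semaphorin receptor Plxnd1 (0.30 ± 0.14 SE), and 1 lower, Sema3e (-0.25 ± 0.11 SE). The counts of these last 4 lists were near the 7.84% higher and 8.85% lower of all genes.

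Whether the response to defeat depended on rearing was tested as the difference between the 2 contrasts, which share no library. None of 14000 genes had an adjusted p under 0.05 (limma), with a smallest value of 0.824, and 832 genes (5.94%) had an unadjusted p under 0.05, against 700 that this threshold gives by chance. The edgeR fit gave 886 such genes. Defeat after standard rearing alone gave 0 genes at an adjusted p under 0.05 by limma and by edgeR, with 469 and 527 at an unadjusted p under 0.05, fewer than 700. The standard-reared count was 392 without the 3 libraries of high Xist, 222 without standard control 4, 229 without standard defeat 2 and 765 without standard control 5. After ELS 2337 genes reached that threshold, or 580 higher and 633 lower without ELS control 4, and no single gene passed the test of the difference between the contrasts. Myd88 had the smallest p among the genes with a larger difference after ELS, with 0.39 between the contrasts, and it was also chosen by the ELS contrast that enters this value.

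Of the other genes of smallest p for this difference, Ptchd2, Bcar3 and Mad2l2 had higher means with defeat after ELS and lower means after standard rearing. Mad2l2, a subunit of a translesion polymerase, ranged from 141.2 to 184.9 normalised reads in the ELS controls and from 186.1 to 214.7 after defeat (0.27 ± 0.07 SE), and it differed by -0.10 ± 0.07 (SE) after standard rearing. In the other direction, Slc7a7, a cationic amino acid transporter of macrophages and microglia, had a median of 67.2 in the ELS controls and 54.5 after defeat (-0.33 ± 0.12 SE), and means of 54.4 without and 70.5 with defeat after standard rearing (0.38 ± 0.12 SE). Magel2, an imprinted gene of the Prader-Willi region, had medians of 71.6 and 44.8 after ELS (-0.54 ± 0.20 SE) and a difference of 0.52 ± 0.20 (SE) after standard rearing, which was 0.23 ± 0.21 (SE) without the 3 libraries of high Xist. Pdcd7 and Ccnjl showed the same crossing at smaller size. None of these 8 genes passed, and they were picked by the value shown.

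**Figure D4:**
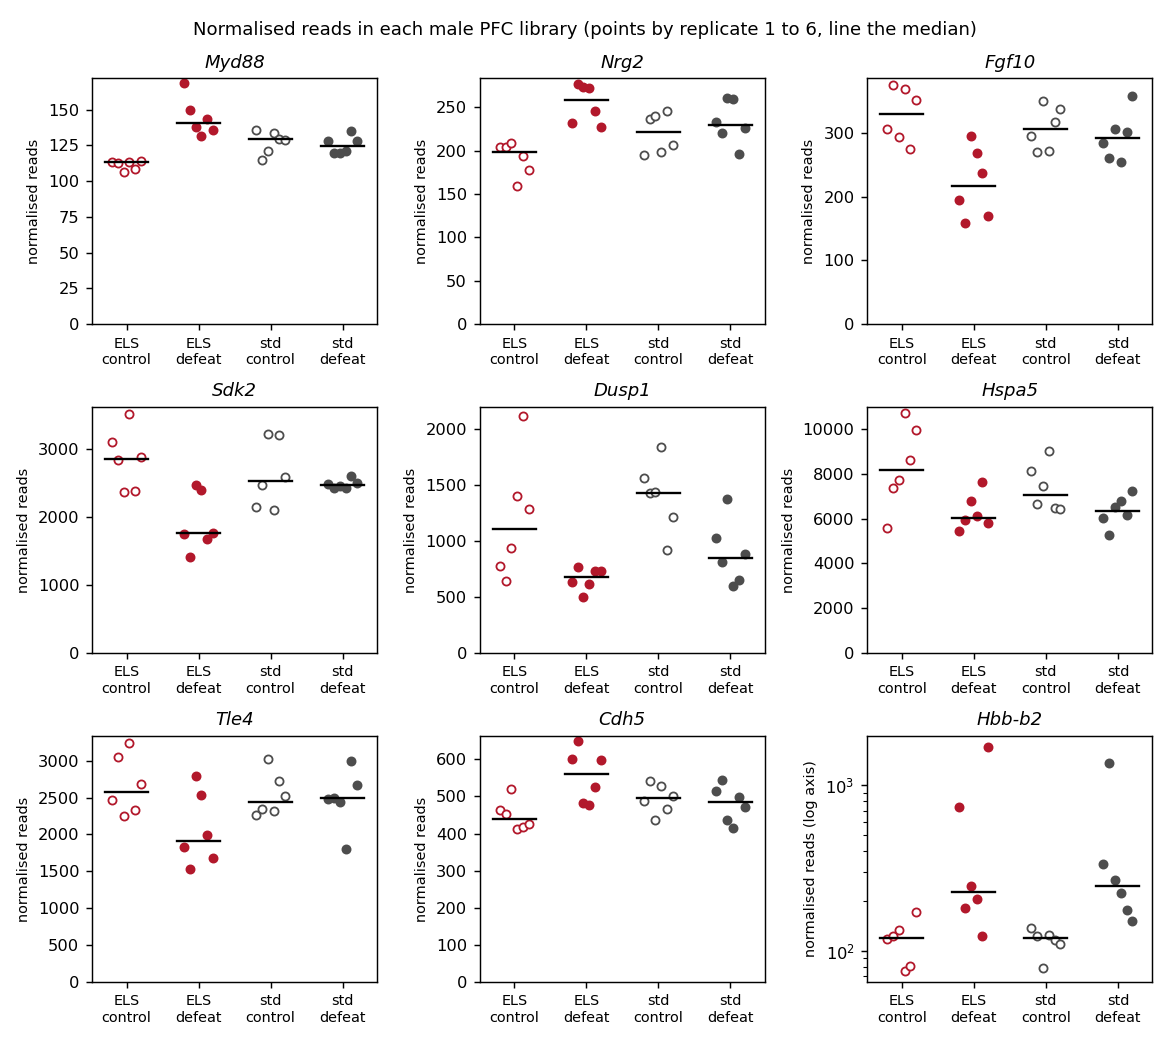
Normalised reads of 9 genes in each of 24 male PFC libraries, open symbols for controls and filled for defeat, red for ELS and grey for standard rearing, with the group median as a line; Hbb-b2 is on a log axis. Myd88 separates the ELS groups, Fgf10 and Sdk2 overlap through 2 defeat libraries, and Hbb-b2 reaches 1689 in ELS defeat 6.

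The same comparison in HIP, set beside these values without a test of the difference between regions, gave list medians of 1.19 for blood, 1.14 for meningeal fibroblasts, 0.45 for mural cells, 0.21 for endothelium and 0.46 for interferon genes. The astrocyte and microglial medians, 0.14 and 0.12 in PFC, were -0.04 and -0.05 in HIP. H2-Q4 differed by 0.70 ± 0.24 (SE) in HIP, Bst2 by 0.94 ± 0.31 (SE) and Pltp by 0.51 ± 0.24 (SE), near or above their PFC values. Myd88 differed by 0.08 ± 0.12 (SE) there, Nrg2 by -0.03 ± 0.27 (SE) and Fgf10 by 0.08 ± 0.20 (SE). Choroid plexus varied among the HIP libraries, with Folr1 between 1.38 and 1421 normalised reads. Ttr, of the same list, was at 164682 and 124403 normalised reads in HIP ELS defeat 2 and 5. It lay between 79.1 and 338.5 in the other HIP ELS defeat libraries and between 53.0 and 17416 in the HIP ELS controls. The choroid plexus list, with 2 tested genes, had a HIP median of 1.62. The part of choroid plexus in the HIP values was not tested.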

How the data were processed

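RNA of 24 male PFC and 24 male HIP libraries was used, grouped by title and characteristics, and 66 other libraries of the table and the rest of the series were not analysed here. Per the labels' protocols, poly-A RNA was made into unstranded libraries with multiplexing balanced over groups, so antisense reads cannot be told apart. The authors deposited a signal, gene counts divided by 1 factor per library. HISAT, HTSeq and mm10 are named in the submitters' processing notes, and how the factors were made is not stated there. Dividing each value by the smallest step of its library gave whole reads (100% of positive values, tolerance 0.001) and with them the depth. All 30 pairs of libraries within the 2 ELS groups differed by more than sampling noise (lowest chi-square per gene 5.56), so none was merged.

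The 14000 genes of highest mean over the 24 PFC libraries (at least 38.2 normalised reads) entered a limma 3.58.1 fit in R 4.3.3 (robust, with a mean-variance trend) of log2(value + 1), 1 coefficient per group, so all 4 groups share the estimate of spread; the scale understates changes of low genes. p-values measure the spread between mice, and the threshold was an adjusted p of 0.05. HIP was fitted alike. The fit was first tested on simulated data. Named are the 12 higher and 12 lower genes of smallest unadjusted p, clone names left out, 4 and 4 for the difference between rearing conditions, and members of 34 gene lists (482 of 492 entries in the table). The members and lists were chosen with earlier results of these data known. Lists are described, not tested. Alternatives were edgeR 4.0.16 on whole reads, other pseudocounts, filters and scaling, surrogate variables (sva 3.50.0), the 12 libraries alone, a replicate block and leaving out each library. Promoters are RefSeq's (GRCm38.p6). Values of some single genes are not reported here.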

Additional observations from a re-analysis of the deposited data

Results flagged for a closer look

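In 114 groups of 6 libraries (named genes and list means), the highest or lowest library was compared with its neighbour, and 8 stood apart, with a gap to the next library, as a share of the group's range, above Dixon's critical value for 95%; chance alone sets apart about 1 in 20 groups. After defeat, ELS defeat 5 had the highest immediate early level (gap 0.912 of the range, mean log2 level 10.01 against 9.7 in the next) and the highest striatal projection neuron level (0.755, 10.01 against 8.86), and ELS defeat 6 the highest oligodendrocyte precursor level (0.672, 9.43 against 9.23). Among the ELS controls, control 4 was low in oxidative phosphorylation genes (0.637, 10.65 against 10.97) and in Trmt61a (0.655, 460.2 normalised reads against 574). Control 1 was low in Ppp1r10 (0.675, 1764 against 1917), control 5 high in dopamine neuron genes (0.674, 6.73 against 6.27) and control 6 high in hippocampal neuron genes (0.831, 10.64 against 10.28).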

How the results depend on the processing

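The 24 genes named for defeat after ELS kept their sign in every setting that tested them, while medians of some lists near 0 changed sign. Stc2 was not tested under the filter at a mean of 50 normalised reads. The balance of directions also turned: 1098 higher and 1239 lower at an unadjusted p under 0.05 became 1225 and 1176 with edgeR, 767 and 721 without ELS defeat 6, 1172 and 1156 without ELS control 5 and 803 and 798 without ELS control 6. For defeat after ELS, 0 genes had an adjusted p under 0.05 in every setting except 2 surrogate variables (12 genes) and leaving out ELS control 1 (35). Leaving out 1 library each gave 0 to 35 such genes, 580 to 1459 higher and 633 to 1748 lower at an unadjusted p under 0.05, and 510 to 1194 genes for the difference between rearing conditions. Without a filter, 30390 genes were tested, which gave 1689 higher, 1539 lower and 1602 for that difference. Fitting the replicate number as a block gave 0 genes at an adjusted p under 0.05, 1157 higher, 1210 lower and 829 for the difference. The numbers are not shown to pair the mice: same-number correlations ran from -0.332 to 0.361, and 2 of 6 defeat libraries correlated best with their own number. The cause of these shifts was not tested. Among the 24 named genes, 8 had an adjusted p under 0.05 (limma) with surrogate variables and 17 without ELS control 1. None did in the rest of the 22 settings. The 34 list medians have no such threshold, and each moved by less than the standard deviation of its list level within the ELS groups. Without the 3 standard-reared libraries of high Xist the difference between rearing conditions gave 881 genes and defeat after standard rearing 392. Genes under a mean of 38.2 normalised reads were not tested, so that 2 of 10 choroid plexus genes were.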
